A study of Homo sapiens with 12 samples.

Results

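Collagens are built from 3 chains wound into a triple helix, and each chain is encoded by its own gene. The genes described here are the protein-coding genes whose symbol has the form COL, a type number, A and a chain number, which gave 44 of the 19799 protein-coding genes in each deposited table. Poly-A RNA of Hep-G2 cells, a line from a human liver tumour, and of BE(2)-C cells, a human neuroblastoma line, was taken for sequencing at 72 h from cells given either control siRNA (siC) or siRNAs that target IGF2BP1 (siI1). Each of the 4 groups had 3 libraries, 12 in all, and values are FPKM, read fragments scaled by gene length and library size. Both lines are single established lines, the siRNA dose was higher in BE(2)-C per the study's methods, and the study's methods call the libraries of a group biological replicates without saying how the cultures were kept apart, so p-values measure the spread between these libraries.

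Collagen chains are made in the endoplasmic reticulum, where prolines and lysines are hydroxylated and sugars are added before the chains fold and leave the cell. Fibrillar collagens form fibres after their end peptides are cleaved, type IV collagens form the sheet of basement membranes, and fibril-associated collagens coat fibres. IGF2BP1 is an RNA-binding protein of foetal tissues and tumours that binds messenger RNAs in the cytoplasm.

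Reads assigned to genes ranged from 13398903 to 15176939 per library in Hep-G2 and from 12852988 to 15721210 in BE(2)-C. The knocked-down gene followed the labels. IGF2BP1 stood at 48.5, 46.6 and 50.8 FPKM in Hep-G2 siC and at 12.6, 10.7 and 10.7 in siI1, a log2 change of -2.10 (SE 0.08, limma, Benjamini-Hochberg adjusted p = 8e-06). In BE(2)-C the values were 21.3, 20.6 and 21.6 against 4.85, 4.75 and 4.87, a log2 change of -2.11 (SE 0.05, adjusted p = 1.5e-05). The mean of 8 of 8 hepatocyte markers was at least 0.1 FPKM in Hep-G2 and that of 0 of 8 in BE(2)-C, where 8 of 8 neuroblastoma markers reached it. Genes of both lists were called upon knockdown. Over all tested protein-coding genes, 25.3% were higher and 30.5% lower in Hep-G2, against 15.5% and 19.9% in BE(2)-C. In Hep-G2, 5 hepatocyte markers were higher in siI1 and 2 lower (median log2 change 0.49), with ALB the most abundant at a mean of 4619 FPKM, and the list summed to 7821, 7776 and 7748 FPKM in siC and 12858, 14484 and 14639 in siI1. Of the neuroblastoma markers in BE(2)-C, 1 was higher and 5 lower (median -0.39), with MYCN the most abundant at a mean of 1778 FPKM, and the list summed to 2911, 2729 and 2795 FPKM in siC and 2734, 2697 and 2794 in siI1. Their part in the collagen values was not tested.

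Libraries of the Hep-G2 siI1 group differed among themselves. Replicate 1 had an FPKM sum of 273699 against 297453 and 300505 in replicates 2 and 3. Without it 3530 protein-coding genes were called higher and 4334 lower, against 2565 and 3251 without replicate 2 and 2594 and 3329 without replicate 3. At low levels replicates 1, 2 and 3 had 3, 8 and 0 protein-coding genes of at least 0.5 FPKM that were under 0.1 in the other 5 Hep-G2 libraries. In siI1 replicate 2, COL1A2 had 0.47 FPKM against 0.00 and 0.01 in the other siI1 libraries, COL6A2 had 0.83 against 0.03 and 0.08, and COL1A1 had 0.75 against 0.14 and 0.21. SFRP2 at 3.89 FPKM and SLPI at 3.46, genes chosen after their values were seen, were listed at 0 in the other 5 Hep-G2 libraries. Of the 8 fibroblast markers, 2 had a mean of at least 0.1 FPKM in Hep-G2, the most abundant was FBLN1 with a mean of 21.8, and the list summed to 24.4, 28.1 and 28.8 FPKM in siI1 replicates 1, 2 and 3 and to 17.6, 18.03 and 17.8 in siC. Of the 2 that passed the filter, FBLN1 was higher in siI1 (log2 change 0.62, adjusted p = 0.000513) and PDGFRB had a log2 change of -0.37 (adjusted p = 0.222). In siI1 replicate 2 the markers PDGFRA, DCN and THY1 had 0.01, 0.03 and 0.07 FPKM and DPT was listed at 0. Of the 7 stellate cell or pericyte markers, 3 were tested in Hep-G2 and 1, ACTA2, was higher, from 26.6, 26.9 and 26.4 FPKM in siC to 85.6, 105 and 110 in siI1, a log2 change of 1.90 (adjusted p = 1.88e-05). The most abundant of that list, RELN with a mean of 66.0, had a log2 change of -0.08 (adjusted p = 0.675), HGF and LRAT were listed at 0, and the list summed to 103, 85.8 and 94.9 FPKM in siC and 164, 161 and 168 in siI1. Among all tested protein-coding genes in Hep-G2, 25.3% were higher and 30.5% lower. The part of these markers and low-level transcripts in the results was not tested. ACTA2 and FBLN1 were high in all 3 siI1 libraries, so leaving 1 out does not bear on them. Without siI1 replicate 2 the number of collagen chains higher in Hep-G2 siI1 was 10, all 10 shared with the full set.

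**Figure D1:**
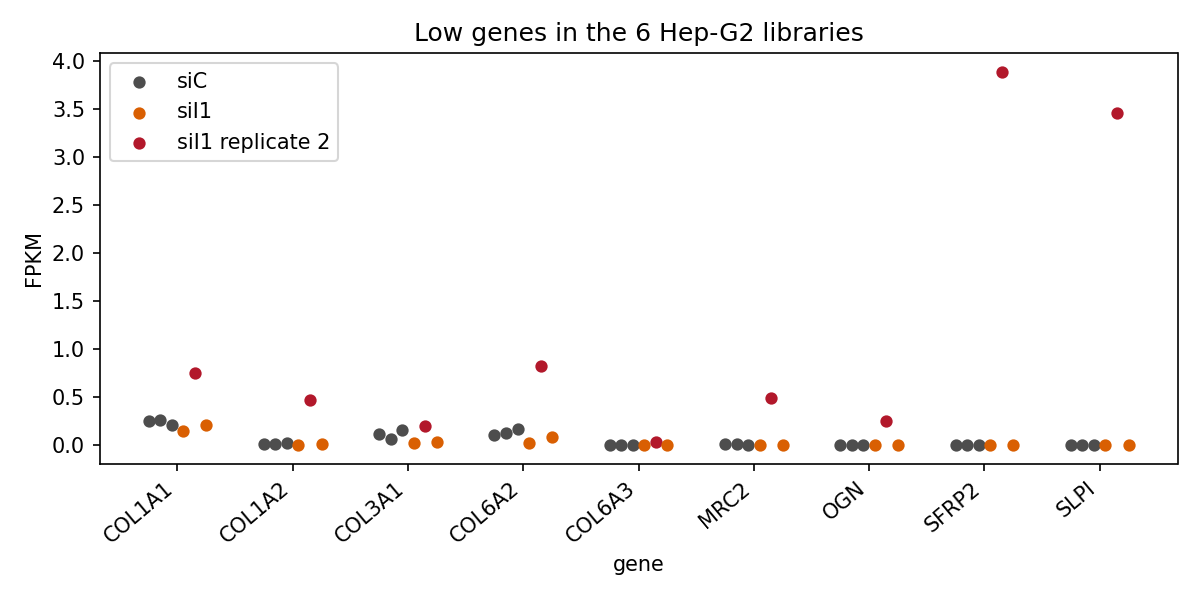
FPKM of 9 genes in the 6 Hep-G2 libraries, one point per library, with siI1 replicate 2 in red. COL1A1, COL1A2, COL3A1, COL6A2, COL6A3, MRC2, OGN, SFRP2 and SLPI are highest in that library.

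In Hep-G2, 10 of the 16 collagen chains that passed the filter were higher upon IGF2BP1 knockdown and 0 were lower, where 25.3% of the 12823 tested protein-coding genes were called higher and 30.5% lower (limma, Benjamini-Hochberg adjusted p below 0.05). At an unadjusted p below 0.05, 11 chains were higher and 0 lower, and the share of all genes at that threshold was not counted. Limma voom on recovered reads called 11 chains higher and 0 lower. Voom called 3582 protein-coding genes higher and 4321 lower, against 3247 and 3915 in the main fit. The median log2 change of the 16 chains was 0.88, and of all tested protein-coding genes -0.04. A gene passed the filter if 3 or more of a line's 6 libraries reached 0.1 FPKM, and changes are siI1 minus siC on the log2 scale of FPKM plus 0.1, which understates changes of low genes. The filter left out 28 chains in Hep-G2, so the count describes the 16 and not all 44. Summed over the 44 chains, the level was 137, 138 and 136 FPKM under siC and 309, 322 and 324 under siI1.

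COL16A1, a fibril-associated chain that lies on chr1:31652263-31704319 on the minus strand of hg38, moved most. It had 2.08, 2.25 and 2.34 FPKM in siC and 23.5, 24.2 and 23.4 in siI1, with between 284 and 3260 reads per library. The log2 fold change of COL16A1 was 3.36 (SE 0.07, adjusted p = 1.37e-06). COL9A3 and COL9A2 encode chains of type IX, a collagen found on cartilage fibrils. COL9A3 had 49.7, 52.5 and 51.5 FPKM in siC and 82.3, 86.8 and 90.5 in siI1, a log2 change of 0.75 (SE 0.05, adjusted p = 7.59e-05). COL9A2 rose from 5.17, 5.82 and 5.24 FPKM to 9.10, 10.4 and 11.1, a log2 change of 0.90 (adjusted p = 0.000337), while their partner COL9A1 stayed between 0 and 0.04 FPKM. COL9A3 shares 155 exon bases with TCFL5 on the other strand, and the libraries were strand-specific per the study's methods but the setting of strand in counting is not stated, so it is not known whether reads of the pair were kept apart there. TCFL5 itself had a log2 change of 0.01 in Hep-G2 (adjusted p = 0.909).

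COL18A1, a multiplexin of basement membranes whose end fragment is endostatin, had 37.2, 37.3 and 35.8 FPKM in siC and 113, 128 and 129 in siI1. Its log2 fold change was 1.74 (SE 0.06, adjusted p = 7.06e-06), and its mean share of the summed collagen FPKM went from 26.8% to 38.7% while that of COL9A3 went from 37.4% to 27.2%. SLC19A1, on the other strand, shares 1563 exon bases with it and fell, with a log2 change of -0.80 (adjusted p = 0.00102), and whether reads of this pair were kept apart is not known either. COL7A1, the chain of the fibrils that anchor skin epithelium, had 1.97, 2.19 and 1.67 FPKM in siC and 4.28, 4.53 and 4.29 in siI1, a log2 change of 1.138 (adjusted p = 0.000354).

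**Figure D2:**
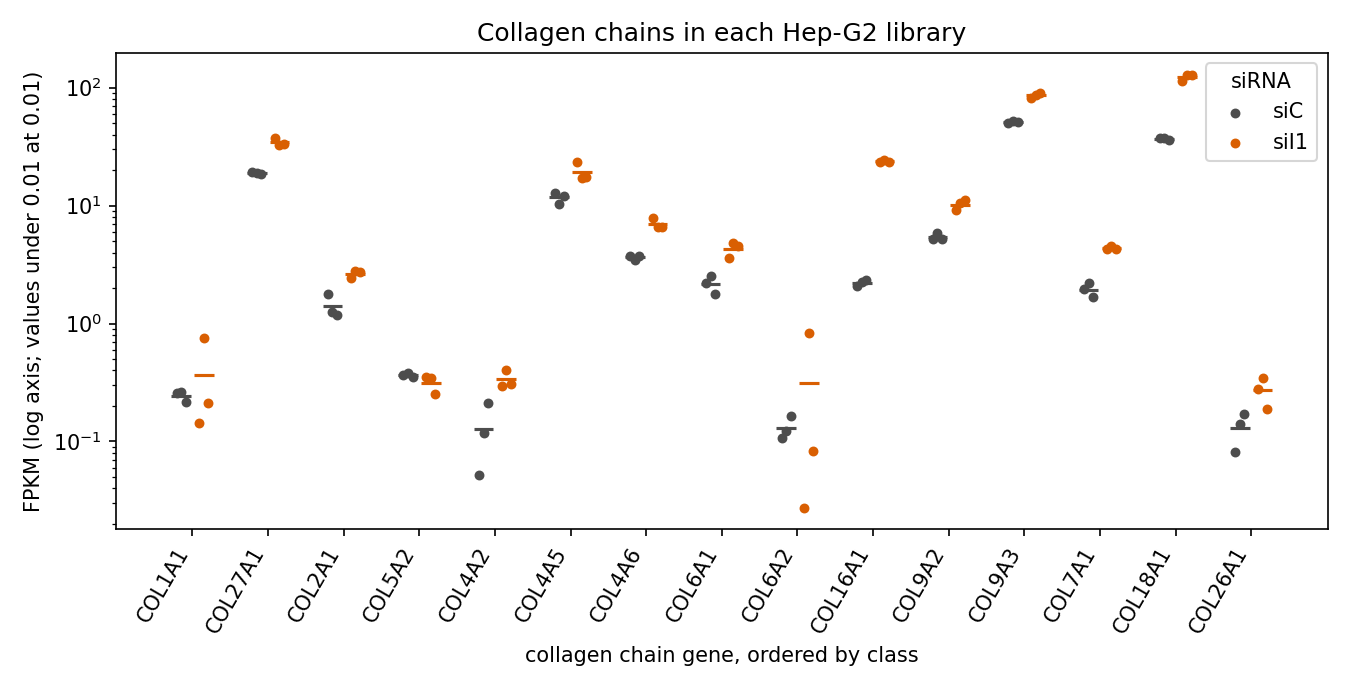
FPKM on a log axis of the 15 chains with a mean of at least 0.1 FPKM in Hep-G2, one point per library and a line at each group's mean, with siC in grey and siI1 in orange. COL16A1 goes from a mean of 2.22 to 23.7 FPKM and COL18A1 from 36.8 to 123.

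Among fibrillar chains, COL27A1 and COL2A1 rose. COL27A1, a chain expressed in cartilage, had 19.2, 19.0 and 18.6 FPKM in siC and 37.3, 32.9 and 33.0 in siI1, a log2 change of 0.86 (adjusted p = 7.62e-05). COL2A1, the main collagen of cartilage, had 1.78, 1.25 and 1.17 FPKM against 2.43, 2.79 and 2.72, a log2 change of 0.89 (adjusted p = 0.00578). The fibrillar chains of skin and bone were low. COL1A1 had a log2 change of 0.23 (adjusted p = 0.736), which was -0.31 without Hep-G2 siI1 replicate 2, and COL5A2 one of -0.17 (adjusted p = 0.583, and -0.24 to -0.056 with 1 library left out). COL3A1, with a mean under 0.1 FPKM, passed the filter and had a log2 change of -0.30 (adjusted p = 0.632), which ran from -0.47 to -0.061 with 1 library left out.

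COL4A5 and COL4A6, neighbours on the X chromosome that start 380 bases apart on opposite strands, rose together. COL4A5 had 12.8, 10.3 and 12.1 FPKM in siC and 23.5, 17.2 and 17.5 in siI1, a log2 change of 0.71 (SE 0.14, adjusted p = 0.00606). COL4A6 had 3.75, 3.49 and 3.70 FPKM against 7.93, 6.62 and 6.59, a log2 change of 0.93 (SE 0.09, adjusted p = 0.000322). Both were highest in siI1 replicate 1. The sequences before their starts are shown because the pair moved together and shares this stretch, from the RefSeq promoters of GRCh38.p14, with 121 bases common to both 250-base windows. RefSeq gives COL4A6 a further start, whose window at chrX:108438423-108438672 is not shown and holds 1 GC box and 0 CCAAT. Capitals mark CCAAT on either strand (ATTGG on the strand shown), and the GC box GGGCGG was searched on both strands and is in neither of the windows shown.
COL4A5, chrX:108439588-108439837, plus strand: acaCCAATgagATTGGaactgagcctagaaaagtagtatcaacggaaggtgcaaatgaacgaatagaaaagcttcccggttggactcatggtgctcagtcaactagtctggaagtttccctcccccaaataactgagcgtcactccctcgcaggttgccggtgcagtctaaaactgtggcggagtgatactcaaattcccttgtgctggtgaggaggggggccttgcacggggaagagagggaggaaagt
COL4A6, chrX:108439498-108439708, minus strand: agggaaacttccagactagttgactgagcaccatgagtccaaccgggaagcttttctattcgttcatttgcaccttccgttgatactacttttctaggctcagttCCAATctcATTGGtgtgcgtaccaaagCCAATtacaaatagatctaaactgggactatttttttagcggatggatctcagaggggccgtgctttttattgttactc
The bases of the second window that lie inside the annotated gene are left off. CCAAT is in 12 of the 44 promoter windows that matched 32 of the 44 chains, and in 32.0% of all 35116 RefSeq windows of 250 bases, and the GC box is in 24 of the 44 and in 42.6%. A match is a description of letters. COL4A1 and COL4A2 start 127 bases apart on opposite strands in the same way. COL4A2 had 0.05, 0.12 and 0.21 FPKM in Hep-G2 siC and 0.30, 0.40 and 0.31 in siI1, a log2 change of 1.00 that missed the threshold (adjusted p = 0.0536). It passed with voom, at a log2 change of 1.60 (adjusted p = 0.00508), and at an adjusted p of 0.0441 with a pseudocount of 1, 0.0369 with no trend, 0.0391 with median centring and 0.0378 without siC replicate 3. COL4A1 was between 0 and 0.06 FPKM.

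COL6A1, a chain of the type VI filaments around cells, had 2.22, 2.54 and 1.78 FPKM in siC and 3.61, 4.79 and 4.55 in siI1, a log2 change of 0.96 (adjusted p = 0.00338). Its partner COL6A2 had 0.11, 0.12 and 0.16 FPKM against 0.03, 0.83 and 0.08, with a log2 change of 0.28 (adjusted p = 0.786) that was -0.59 without siI1 replicate 2. COL26A1, a little-studied chain, had a log2 change of 0.69 (adjusted p = 0.123).

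In BE(2)-C, 3 of the 18 tested chains were higher and 3 were lower, where 15.5% of the 12600 tested protein-coding genes were called higher and 19.9% lower. Their median log2 fold change was -0.11, and that of all tested protein-coding genes -0.01. Limma voom on recovered reads called 5 higher and 5 lower, the 3 and 3 among them, and with no trend 3 were higher and 4 lower, with 2 of the 3 higher and the 3 lower among them. Voom called 2683 protein-coding genes higher and 3103 lower, and the fit with no trend 1724 and 2012, against 1951 and 2505 in the main fit. The summed collagen level was 36.0, 31.2 and 32.8 FPKM in siC and 42.6, 38.1 and 39.7 in siI1.

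Some markers of other cell types also differed between the groups of BE(2)-C, where 15.5% of all tested protein-coding genes were higher and 19.9% lower. Of the 8 fibroblast markers 7 were tested. LUM with a log2 change of 1.08 (adjusted p = 0.000331), DPT with 1.24 (adjusted p = 0.017) and DCN with 0.66 (adjusted p = 0.000982) were higher in siI1 and FBLN1 lower with -0.32 (adjusted p = 0.032). PDGFRA had 0.08, 0.08 and 0.04 FPKM in siC and 0.36, 0.48 and 0.37 in siI1 and passed the filter through siI1 alone. Without it, the median over the 6 was 0.39. The most abundant, THY1 with a mean of 97.9 FPKM, had a log2 change of 0.13 (adjusted p = 0.159) and PDGFRB one of -0.10 (adjusted p = 0.464), and the list summed to 134, 120 and 125 FPKM in siC and 145, 146 and 137 in siI1. Of the 7 stellate cell or pericyte markers, 2 of 5 tested were higher and 2 lower, with a median of -0.21. RGS5, the most abundant with a mean of 343 FPKM, and HGF were higher, with log2 changes of 0.44 (adjusted p = 0.00174) and 0.56 (adjusted p = 0.0191). ACTA2 and CSPG4 were lower, with -0.88 (adjusted p = 0.0292) and -1.31 (adjusted p = 0.0154), and RELN had -0.21 (adjusted p = 0.0705). LRAT was listed at 0, and that list summed to 316, 338 and 351 FPKM in siC and 427, 432 and 439 in siI1. The calls of LUM, DCN and RGS5 held without any 1 library. That of DPT was lost without siI1 replicate 2 (adjusted p = 0.0653), and those of FBLN1, HGF, ACTA2 and CSPG4 were lost without at least 1 library, with an adjusted p of up to 0.103, 0.0632, 0.0777 and 0.0505. The part of these markers in the collagen values was not tested.

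The type VI chains moved in different directions. COL6A6, a long type VI chain, had 2.52, 2.67 and 3.08 FPKM in siC and 7.89, 8.01 and 8.28 in siI1, a log2 change of 1.52 (SE 0.09, adjusted p = 0.000158). COL6A1, the most abundant chain per length, had 11.8, 10.3 and 10.7 FPKM against 15.4, 12.7 and 14.5, a log2 change of 0.37 (adjusted p = 0.0184). Its neighbour on chromosome 21, COL6A2, had 3.28, 2.91 and 3.13 FPKM against 2.29, 2.38 and 2.43, a log2 change of -0.38 (adjusted p = 0.0192). The calls of COL6A1 and COL6A2 were near the threshold. COL6A1 lost its call without siC replicate 2 or 3 or siI1 replicate 1 or 3, with adjusted p = 0.0521, 0.0519, 0.0544 and 0.0609, and with no trend (0.0523), and COL6A2 without siC replicate 3 or siI1 replicate 1, 2 or 3, with adjusted p = 0.0533, 0.0622, 0.0577 and 0.0517. COL6A3 had a log2 change of 0.50 (adjusted p = 0.22, and 0.0389 with no trend), which was 0.76 with voom (adjusted p = 0.00685).

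**Figure D3:**
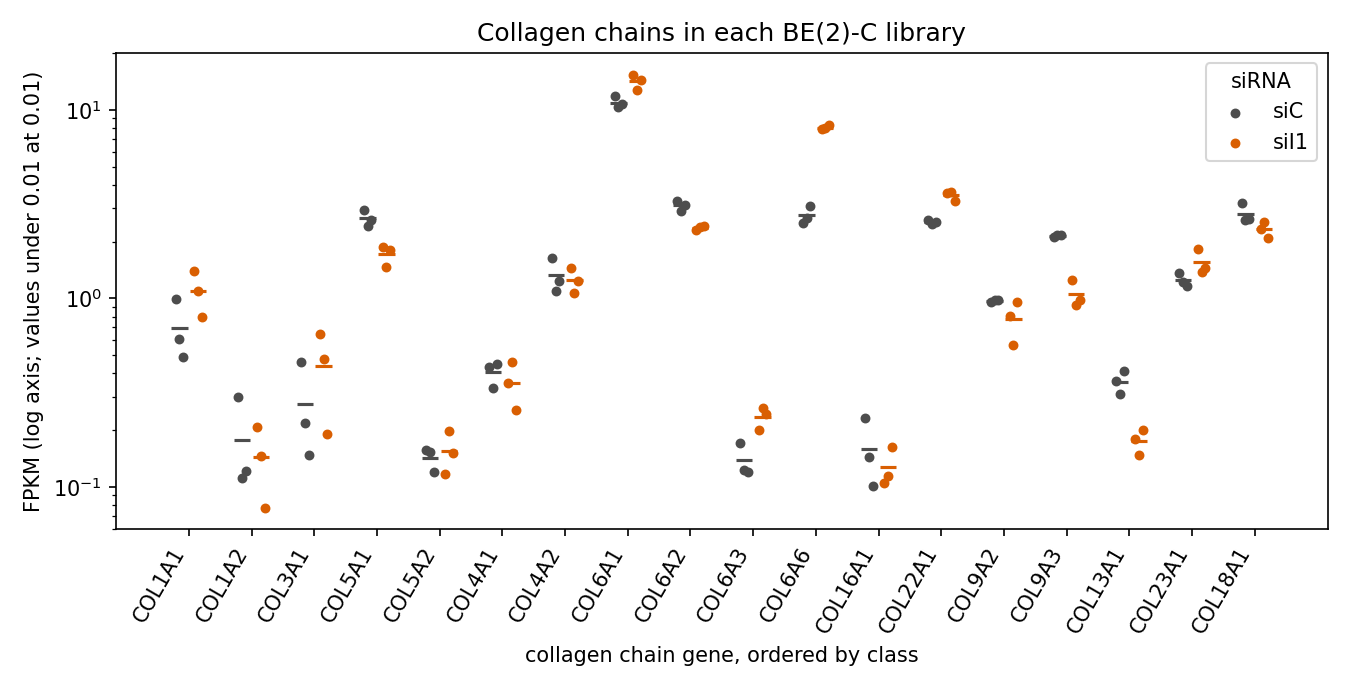
FPKM on a log axis of the 18 chains with a mean of at least 0.1 FPKM in BE(2)-C, one point per library and a line at each group's mean, with siC in grey and siI1 in orange. COL6A6 goes from a mean of 2.76 to 8.06 FPKM and COL9A3 from 2.15 to 1.05.

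Of the fibril-associated chains, COL22A1, found where muscle meets tendon, had 2.59, 2.48 and 2.54 FPKM in siC and 3.60, 3.67 and 3.29 in siI1, a log2 change of 0.46 (adjusted p = 0.00737). COL9A3 fell, from 2.12, 2.16 and 2.18 FPKM to 1.25, 0.92 and 0.98, a log2 change of -0.98 (SE 0.14, adjusted p = 0.00285), while TCFL5, which overlaps it, had one of -0.17 (adjusted p = 0.192). COL9A2 had a log2 change of -0.32 (adjusted p = 0.299, and -0.46 to -0.13 with 1 library left out) and COL16A1 one of -0.16 (adjusted p = 0.752) at a mean of 0.16 FPKM in siC. COL5A1, a fibrillar chain that limits fibre width, fell from 2.94, 2.43 and 2.59 FPKM to 1.87, 1.47 and 1.80, a log2 change of -0.60 (adjusted p = 0.0148).

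The other tested chains of BE(2)-C were not called. COL1A1 had 0.99, 0.61 and 0.49 FPKM in siC and 1.40, 1.09 and 0.79 in siI1, a log2 change of 0.60 (adjusted p = 0.179, and 0.00651 with voom). The log2 fold change was -0.16 for COL1A2 (adjusted p = 0.8), 0.50 for COL3A1 (adjusted p = 0.463, and 0.21 to 0.90 with 1 library left out) and 0.06 for COL5A2 (adjusted p = 0.894). For the type IV chains, COL4A2 at 1.63, 1.09 and 1.24 FPKM in siC and 1.45, 1.06 and 1.24 in siI1 had a log2 change of -0.07 (adjusted p = 0.834) and COL4A1 one of -0.16 (adjusted p = 0.686). The membrane-spanning chain COL13A1 had a log2 change of -0.74 (adjusted p = 0.0629, and 0.0127 with no trend and 0.0119 with voom) at 12 to 33 reads per library. COL23A1, also membrane-spanning, had 1.36, 1.22 and 1.16 FPKM against 1.82, 1.38 and 1.45, a log2 change of 0.29 (adjusted p = 0.2, and 0.17 to 0.36 with 1 library left out). COL18A1 had 3.19, 2.59 and 2.65 FPKM against 2.34, 2.53 and 2.09, a log2 change of -0.27 (adjusted p = 0.152, and 0.0343 with voom), which ran from -0.33 to -0.17 with 1 library left out, while SLC19A1, which overlaps it, had a mean of 9.10 FPKM and fell by 0.54 (adjusted p = 0.00109).

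Across both lines, 24 chains had a mean of at least 0.1 FPKM in at least one, 9 of them in both, and 20 were under 0.1 in both. Those 20 were COL4A3, COL4A4, COL5A3, COL6A5, COL8A1, COL8A2, COL9A1, COL10A1, COL11A1, COL11A2, COL12A1, COL14A1, COL15A1, COL17A1, COL19A1, COL20A1, COL21A1, COL24A1, COL25A1 and COL28A1. The difference of the knockdown effect between lines was tested in a joint limma fit of 15362 genes, in which 10 chains could be tested and 6 differed, where 49.9% of 11084 protein-coding genes did. COL9A3 rose in Hep-G2 and fell in BE(2)-C, a difference of -1.73 (BE(2)-C minus Hep-G2 on the log2 scale, SE 0.12, adjusted p = 1.84e-06). For COL16A1 it was -3.52 (adjusted p = 2.02e-06), for COL18A1 -2.01 (adjusted p = 9.44e-07) and for COL9A2 -1.22 (adjusted p = 0.000904). COL6A1 at -0.59 (adjusted p = 0.0297) and COL4A2 at -1.06 (adjusted p = 0.0449) also passed, but without Hep-G2 siI1 replicate 2, an alternative chosen after seeing the data, their adjusted p was 0.0712 and 0.0963.

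**Figure D4:**
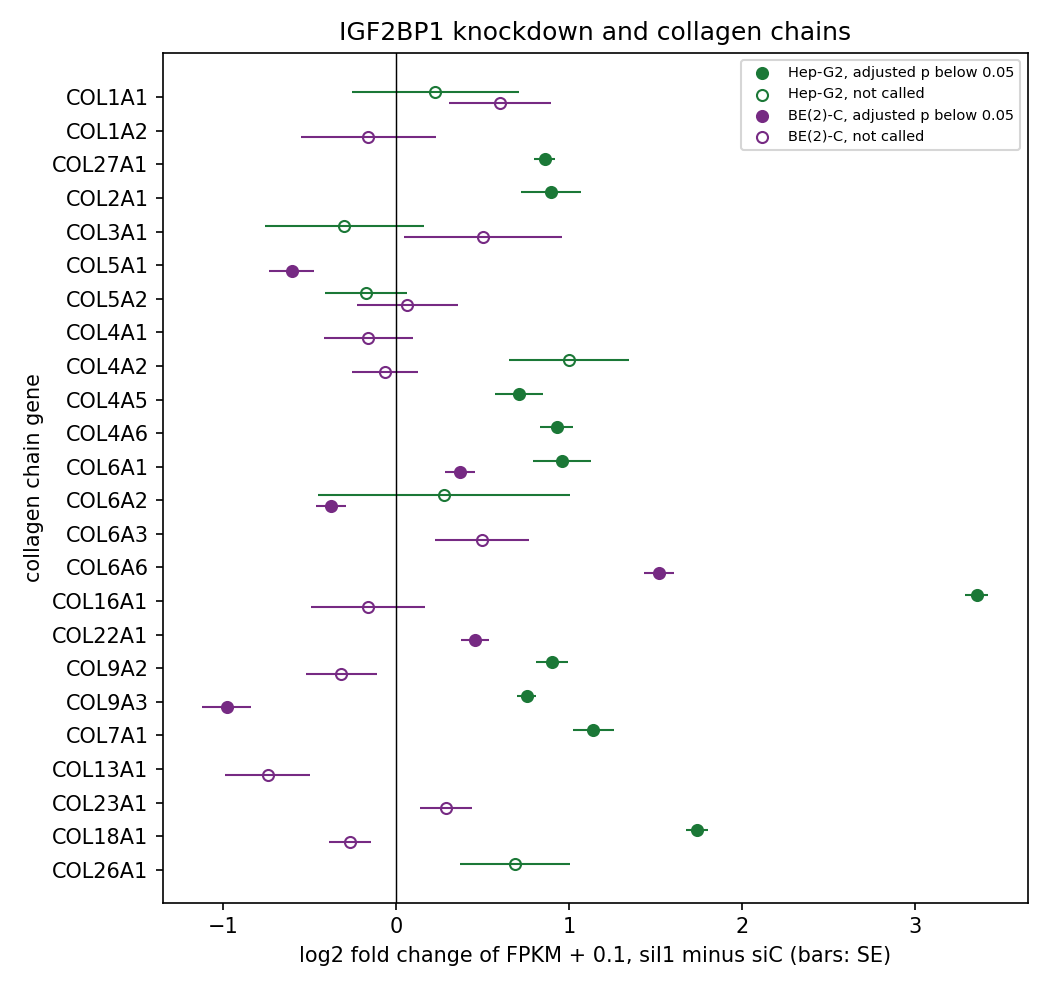
Log2 fold change of FPKM plus 0.1, siI1 minus siC, of the 24 chains expressed in at least one line, with bars for the SE, Hep-G2 in green and BE(2)-C in purple. Filled points have an adjusted p below 0.05, and COL9A3 is filled on opposite sides of 0.

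The genes that make, cut, bind and degrade collagen were read from 10 lists of 114 genes. MMP1 in Hep-G2 and CTAGE5 in BE(2)-C passed the filter through siC alone and are left out of the counts and medians, a choice made after seeing the data. In Hep-G2, 19 of 81 tested were higher and 36 lower (median log2 change -0.12), where 25.3% of all tested protein-coding genes were higher and 30.5% lower (median -0.04). In BE(2)-C 21 of 82 were higher and 12 lower (median 0.07), where 15.5% of all were higher and 19.9% lower (median -0.01). Of the genes for cleavage of the end peptides of procollagen, 5 of 6 tested rose and 1 fell in Hep-G2 (median 0.93, all tested genes 25.3% and 30.5%), and 4 of 5 rose and 0 fell in BE(2)-C (median 0.65, all 15.5% and 19.9%). PCOLCE, an enhancer of that cleavage, went from a mean of 2.60 ± 0.25 to 20.0 ± 2.26 FPKM (SD, n = 3) in Hep-G2, a log2 change of 2.90 (limma, adjusted p = 7.87e-06), and had one of 0.68 in BE(2)-C (adjusted p = 0.00122). ADAMTS2, a protease that removes the amino-terminal end, had a log2 change of 1.31 in Hep-G2 (adjusted p = 0.000292) and of 1.75 in BE(2)-C (adjusted p = 5.21e-05). ADAMTS14 and BMP1 also rose in Hep-G2, by 1.23 and 0.63 on the log2 scale, and PCOLCE2 rose in both lines, by 0.62 in Hep-G2 and 0.65 in BE(2)-C. MEP1A, a meprin protease, fell by 2.08 on the log2 scale in Hep-G2.

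Of the enzymes and chaperones of the endoplasmic reticulum, 2 of 17 tested were higher and 8 lower in Hep-G2 (median -0.12, all tested genes 25.3% and 30.5%), and 4 higher and 4 lower in BE(2)-C (median -0.08, all 15.5% and 19.9%). COLGALT2, which adds galactose to hydroxylysine, went from 3.45 ± 0.21 to 0.35 ± 0.01 FPKM in Hep-G2, a log2 change of -2.96 (adjusted p = 1.52e-05). P4HB, a subunit of prolyl 4-hydroxylase, fell in both lines, by 1.15 in Hep-G2 and 0.65 in BE(2)-C (adjusted p = 0.000113 and 0.000833), and FKBP14, a folding enzyme, had a log2 change of -1.42 in Hep-G2. PPIB, a folding enzyme of collagen, had 0.15 in both lines (adjusted p = 0.331 and 0.0965, and 0.076 to 0.27 in Hep-G2 with 1 library left out), and FKBP10, another folding enzyme, fell by 0.67 in Hep-G2 (adjusted p = 0.000579), from a mean of 79.2 to 49.8 FPKM, and rose by 0.24 in BE(2)-C (adjusted p = 0.0327). Of the procollagen export genes, 0 of 8 rose and 5 fell in Hep-G2 (median -0.36, all tested genes 25.3% and 30.5%), and 0 of 7 rose and 2 fell in BE(2)-C (median -0.01, all 15.5% and 19.9%). SEC13, a coat protein of transport vesicles, fell in both, by 0.57 and 0.45 on the log2 scale, and SEC23A fell by 0.49 in Hep-G2 and had a log2 change of 0.25 in BE(2)-C (adjusted p = 0.05, not called). The call of SEC23A in Hep-G2 was lost without siC replicate 1 or 3 or siI1 replicate 2 or 3 (adjusted p from 0.0613 to 0.0625). That of FKBP10 in BE(2)-C was lost without siC replicate 2 or 3 or any siI1 replicate (from 0.0709 to 0.0931). PLOD3, another of the 4 enzymes or chaperones higher in BE(2)-C, lost its call without the same libraries (from 0.0649 to 0.126). Without any of these libraries neither gene was called. Of the 8 enzymes or chaperones lower in Hep-G2, TMEM38B lost its call without any siC replicate or siI1 replicate 2 or 3 (from 0.0597 to 0.137). P3H3, also lower there, lost its call without siC replicate 2 or 3 (0.0637 and 0.0684). In BE(2)-C, P3H3 was one of the 4 lower and lost its call without siI1 replicate 2 or 3 (0.0722 and 0.0707). Without Hep-G2 siI1 replicate 2, an alternative chosen after seeing the data, 3 of the 8 export genes fell. SAR1B, another of the 5 lower, lost its call there (adjusted p = 0.065). It was also lost without any siC replicate or siI1 replicate 3 (from 0.0657 to 0.104). SEC23A and SAR1B were thus both lost without siC replicate 1 or 3 or siI1 replicate 3 too, so the drop is not particular to siI1 replicate 2.

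Of the lysyl oxidases, which cross-link collagen, 1 of 5 was higher and 2 lower in Hep-G2 (median 0.21, all tested genes 25.3% and 30.5%), and 0 higher and 1 lower of 5 in BE(2)-C (median -0.29, all 15.5% and 19.9%). LOXL2 had a log2 change of -1.36 in Hep-G2 (adjusted p = 0.000122), and LOXL4 one of 0.49 (adjusted p = 0.00119), while in BE(2)-C LOXL1 fell by 0.30 (adjusted p = 0.0418), a call lost without siC replicate 1 or 3 or any siI1 replicate (from 0.0812 to 0.127), and LOXL3 had a log2 change of -0.29 (adjusted p = 0.0736). Of the collagen receptors, 0 of 5 tested rose and 4 fell in Hep-G2 (median -0.99, all tested genes 25.3% and 30.5%), and 2 of 6 rose and 0 fell in BE(2)-C (median 0.14, all 15.5% and 19.9%). The integrin chains ITGA10, ITGA2 and ITGB1 fell in Hep-G2 by 2.48, 1.71 and 0.66 on the log2 scale, and ITGB1 rose by 0.42 in BE(2)-C (adjusted p = 0.00248), where DDR2, a receptor kinase, had a log2 change of 0.16 (adjusted p = 0.16, and 0.10 to 0.25 with 1 library left out). Of the proteases and inhibitors, 1 of 7 was higher and 5 lower in Hep-G2 (median -0.46, all tested genes 25.3% and 30.5%), and 1 of 7 was higher and 1 lower in BE(2)-C (median -0.16, all 15.5% and 19.9%). Without siI1 replicate 2 or with equal sums none was higher in Hep-G2. The gene higher there, CTSK, lost its call without siI1 replicate 2 (adjusted p = 0.0663). It was also lost without siC replicate 1 or 3 or siI1 replicate 3 (adjusted p from 0.0739 to 0.0789). The inhibitors TIMP1 and TIMP4 fell in Hep-G2 by 1.68 and 1.39, while MMP1 had 0.20, 0.11 and 0.10 FPKM in siC, from 6, 3 and 3 reads, and was listed at 0 in the siI1 libraries. TIMP2 fell in both lines, by 0.46 and 0.42, and the gelatinase MMP2 rose by 0.62 in BE(2)-C (adjusted p = 0.000756).

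Of the basement membrane partners, 7 of 12 were higher and 2 lower in Hep-G2 (median 0.40, all tested genes 25.3% and 30.5%), and 4 of 11 higher and 1 lower in BE(2)-C (median 0.24, all 15.5% and 19.9%). LAMA3, one of the 7 higher, lost its call without siC replicate 2 or 3 or any siI1 replicate (adjusted p from 0.0517 to 0.0961). NID1, which links laminin to type IV collagen, went from 21.2 ± 0.34 to 51.3 ± 6.22 FPKM in Hep-G2, a log2 change of 1.27 (adjusted p = 5.84e-05). SPARC, a collagen-binding protein, rose by 0.40 there. FN1, fibronectin, fell by 0.85 in Hep-G2, where its mean was 707 FPKM in siC, and rose by 2.08 in BE(2)-C, where it was 0.36 (adjusted p = 0.0012 and 0.000276). LAMC1, a laminin chain, rose by 0.71 in Hep-G2 (adjusted p = 0.00141) and by 0.24 in BE(2)-C. LAMB1, another, fell by 0.93 in Hep-G2 (adjusted p = 3.75e-05) and had a log2 change of 0.08 in BE(2)-C (adjusted p = 0.311, and 0.054 to 0.12 with 1 library left out). Of the small leucine-rich proteoglycans, 1 of 2 tested rose in Hep-G2 (median 0.78) and 2 of 4 in BE(2)-C (median 0.25), and 0 fell in either, against the same shares of all genes. BGN rose by 1.20 in Hep-G2, where it had 1.27, 2.58 and 1.68 FPKM in siI1 replicates 1, 2 and 3, and had a log2 change of -0.15 in BE(2)-C (adjusted p = 0.292, and -0.23 to -0.050 with 1 library left out), where LUM rose as given above. FMOD had a log2 change of 0.36 in Hep-G2 (adjusted p = 0.621), which ran from 0.030 to 0.94 with 1 library left out.

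Of the transcription regulators of collagen genes, 1 of 10 was higher and 5 lower in Hep-G2 (median -0.38, all tested genes 25.3% and 30.5%), and 2 of 11 higher and 2 lower in BE(2)-C (median 0.06, all 15.5% and 19.9%). SCX, a tendon factor, rose by 1.41 in Hep-G2 and SOX9, a cartilage factor, fell in both lines, by 0.77 in Hep-G2 and 0.78 in BE(2)-C (adjusted p = 0.000125 and 0.00139). TWIST1 rose by 0.27 in BE(2)-C and CEBPB fell by 0.76, with a log2 change of 0.043 in Hep-G2 (adjusted p = 0.741). SNAI2, the other regulator higher in BE(2)-C, lost its call without siI1 replicate 3 (adjusted p = 0.0609). SNAI1, one of the 5 lower in Hep-G2, lost its call without siC replicate 2 or 3 (adjusted p = 0.0581 and 0.0617). Of the transforming growth factor beta ligands and receptors, 1 of 9 was higher and 4 lower in Hep-G2 (median -0.019), and 2 of 9 higher and 1 lower in BE(2)-C (median -0.011), against the same shares of all genes. TGFBR3, a co-receptor, went from 19.8 ± 2.01 to 1.29 ± 0.09 FPKM in Hep-G2, a log2 change of -3.83 (adjusted p = 2.79e-06). LTBP1, TGFBR2 and TGFB3 also fell there, by 2.15, 1.15 and 1.03, and TGFB1, with a log2 change of -0.019 in Hep-G2 (adjusted p = 0.882), fell by 0.55 in BE(2)-C while TGFBR1 rose by 0.40. The call of TGFBR1 was lost without siC replicate 1 or 2 or siI1 replicate 1 or 2 (adjusted p from 0.0561 to 0.0931). LTBP3, the other gene of this list higher in BE(2)-C, lost its call without siI1 replicate 2 (adjusted p = 0.0514), so neither was called without that library.

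**Figure D5:**
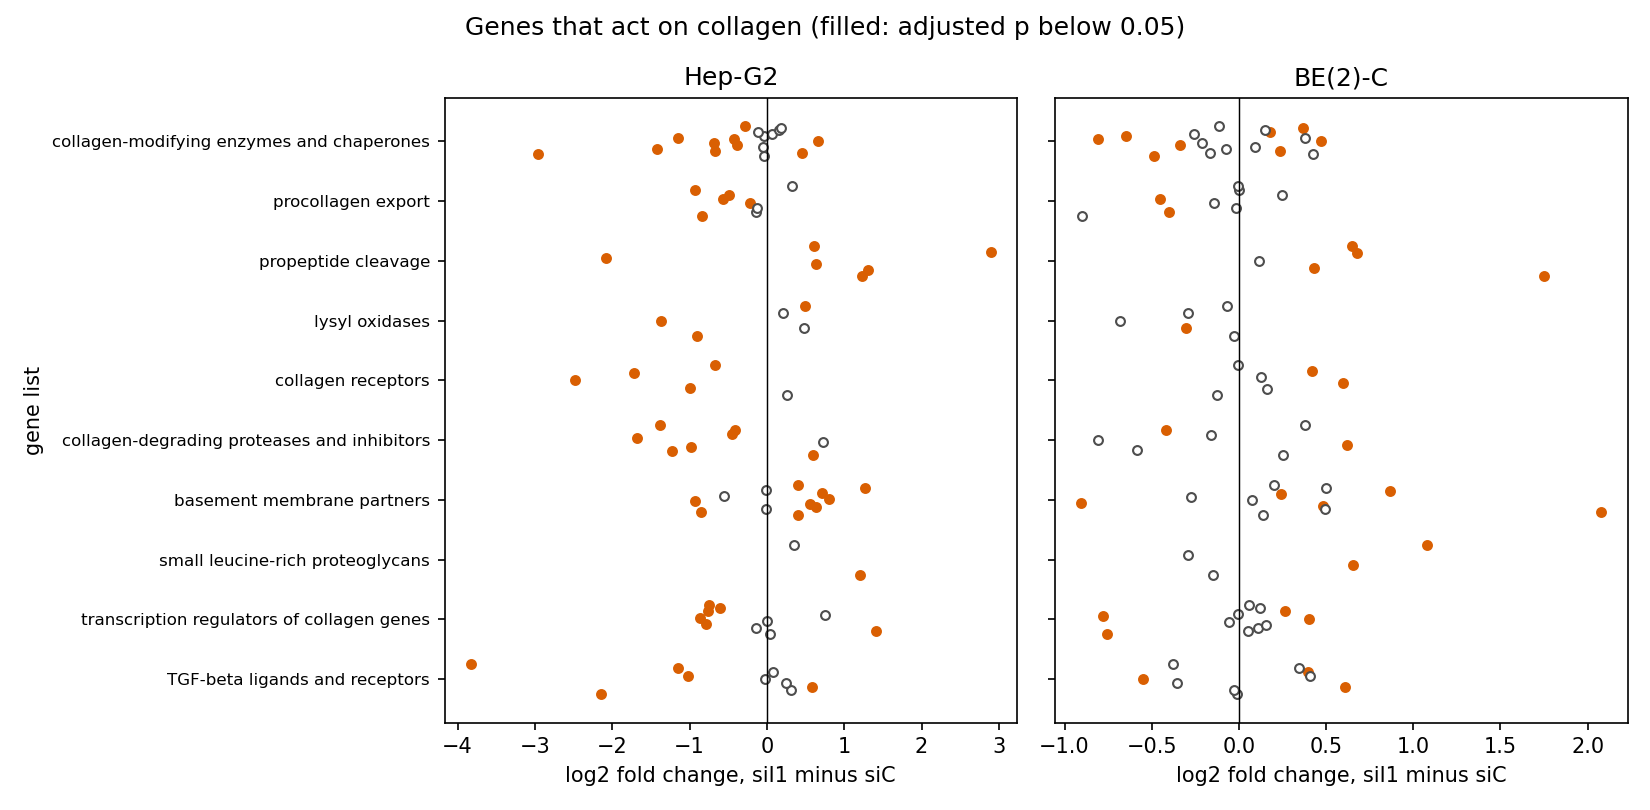
Log2 fold change, siI1 minus siC, of each tested gene of the 10 lists in Hep-G2 and in BE(2)-C, one point per gene and on different horizontal scales. Filled points have an adjusted p below 0.05, and TGFBR3 at -3.83 lies farthest to the left in Hep-G2.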

How the data were processed

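The authors deposited FPKM per gene and library in 1 table per line, each normalized separately, with a gene length column. The authors' processing notes name cutadapt 1.14, HISAT2 2.1.0, SAMtools 1.5, featureCounts 1.5.3, edgeR 3.30.3 and hg38. The tables also hold the authors' own fold changes, p-values and FDR, which were not used. The unit of the gene length column is other than an expression value, as deposited, in bases.

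From these values, log2(FPKM + 0.1) was fitted in each line with limma 3.58.1 in R 4.3.3 (mean-variance trend, Benjamini-Hochberg over all tested genes, threshold 0.05), for genes of every type with at least 0.1 FPKM in at least 3 of 6 libraries. The difference between lines was a contrast in a joint fit. FPKM times length, divided by a constant per library (its smallest nonzero value), gave whole reads for 100% of nonzero values within 0.001, and these reads were used for limma voom. On simulated reads the fit gave the right directions, but it missed part of the changes put into genes with few reads, and its share of false calls was above the nominal level. Those false calls were mostly very short genes with about one read. Voom kept to the nominal level. The design was kept as chosen, and the collagen chains described are long genes. The shares over all genes and the calls of the pathway and marker lists rest on the same fit and were not limited to long genes.

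Members and lists were chosen with earlier results of these data known. Named were every chain with a mean of at least 0.1 FPKM in a line, from each list the called genes with an absolute log2 fold change of at least 1 (at most 5 by p) and the 2 with the highest mean, and IGF2BP1. Positions are from GENCODE on hg38 and promoters from RefSeq. Planned protein features were not computed here. Alternatives were other pseudocounts, filters, scalings, no trend, a replicate block, voom, a minimum fold change and leaving out each library. Figures were drawn with matplotlib 3.10.9.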

Additional observations from a re-analysis of the deposited data

Results flagged for a closer look

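For 6 of the 10 chains tested the effect of IGF2BP1 knockdown differed between the lines in the joint limma fit, where it did for 49.9% of 11084 protein-coding genes. The log2 fold change of BE(2)-C minus that of Hep-G2 was -3.52 for COL16A1, -2.01 for COL18A1, -1.73 for COL9A3, -1.22 for COL9A2, -1.06 for COL4A2 and -0.59 for COL6A1. COL9A3 was called in both lines in opposite directions. The values of COL4A2 and COL6A1 were -0.96 and -0.51 without Hep-G2 siI1 replicate 2, with an adjusted p of 0.0963 and 0.0712.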

How the results depend on the processing

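The 10 chains higher in Hep-G2 stayed called in every alternative except when an absolute log2 change of at least 1 was required, where by construction 3 were left. In BE(2)-C that requirement left 1 higher and 0 lower, and voom gave 5 and 5, for a cause that was not tested. Voom also called more protein-coding genes there, 2683 higher and 3103 lower against 1951 and 2505. With no trend BE(2)-C had 3 higher and 4 lower, without COL6A1 and with COL6A3 and COL13A1. Leaving out 1 library gave 10 to 11 higher and 0 lower in Hep-G2, and 2 to 3 higher and 2 to 3 lower in BE(2)-C. With the replicate block 10 chains were higher and 0 lower in Hep-G2, against 3 and 3 for BE(2)-C, and the correlation of same-numbered libraries ran from -0.01 to 0.06, so the numbers give no pairs. With every library scaled to the same FPKM sum, the median change over Hep-G2 genes of every type went to -0.15 from 0.01 and the share of protein-coding calls that were higher to 32.2% from 45.3%, while 10 chains were still higher. Median centring moved that share the other way, to 54.6% in Hep-G2 and to 51.6% from 43.8% in BE(2)-C, with 11 chains higher and 0 lower, and 3 and 3.

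Signs changed for genes that were not called. Leaving out 1 library gave -0.31 to 0.59 for COL1A1, -0.59 to 0.84 for COL6A2, -0.040 to 0.12 for CEBPB and -0.10 to 0.054 for TGFB1 in Hep-G2. In BE(2)-C it gave -0.33 to 0.035 for COL16A1, -0.18 to 0.086 for COL4A2, -0.35 to 0.13 for COL1A2, -0.32 to 0.0072 for COL4A1 and -0.052 to 0.17 for COL5A2. Equal sums gave -0.017 for PPIB and -0.12 for CEBPB, and median centring 0.072 for TGFB1, in Hep-G2. The line difference of COL6A2 was 0.21 without Hep-G2 siI1 replicate 2, chosen after seeing the data. The cause was not tested. Low chains such as COL13A1 rest on few reads.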

Other observations

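The 6 endothelial markers each had a mean under 0.1 FPKM in both lines. The most abundant was PECAM1 in Hep-G2 and VWF in BE(2)-C, and KDR and TEK were listed at 0 in every BE(2)-C library. Their part in the collagen values was not tested.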
